A study of Mus musculus with 4 samples.

Results

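Gas5 and the Snhg genes make long noncoding RNAs whose introns hold small nucleolar RNAs (snoRNAs). Of 8 such host genes looked up by symbol (Gas5, Snhg1, Snhg3, Snhg5, Snhg6, Snhg7, Snhg8 and Snhg12), 6 had a row among the 37620 gene rows of the count table, and 5 held enough reads to be tested. Snhg6 and Snhg8 had no row under these symbols or their older names, and Snhg3 had too few reads. RNA-seq was performed on WT_CTCF and MUT_CTCF mESCs, mouse embryonic stem cells cultured with serum and LIF, with 2 libraries for each line. In both lines the endogenous CTCF carries an EGFP and auxin degron tag. A vector supplied the wild-type protein in WT_CTCF mESCs and, in MUT_CTCF mESCs, CTCF mutated to alanine at T668, a residue that carries O-GlcNAc. The endogenous CTCF was then removed with auxin. Each line was grown from 1 picked clone, so clone and genotype cannot be told apart. The paper states an auxin dose and time for these lines, but the RNA-seq section of its methods gives none of its own.

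After splicing of the host RNA, the excised introns are trimmed to snoRNAs. C/D snoRNAs guide ribose methylation and H/ACA snoRNAs guide pseudouridylation, mainly of ribosomal RNA. The spliced exons carry no long reading frame. Several of these RNAs, Gas5 among them, start with a run of pyrimidines (a 5′ TOP sequence) like that of ribosomal protein mRNAs, are bound by ribosomes and are removed by nonsense-mediated decay, so that their level depends on transcription, translation and decay together.

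The start sites are shown because a pyrimidine run is known for several such hosts and for ribosomal protein mRNAs, and was not used to choose the hosts. Promoters of ribosomal protein genes were not examined as a set. RefSeq gives 8 promoters for 7 of the 8 hosts and none for Snhg6. Each was matched base for base to the mm9 genome, and each sequence below runs from 10 bases before the RefSeq start to 30 bases from it, on the strand of the gene. Capitals mark a C followed by at least 4 further C or T bases, searched on that strand. The first 5 bases of the run had to lie within 10 bases of the start.
Gas5, chr1:162965287-162965326, plus strand: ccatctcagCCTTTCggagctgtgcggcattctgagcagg
Snhg7, chr2:26495735-26495774, minus strand: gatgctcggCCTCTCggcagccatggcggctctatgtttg
Snhg12, chr4:131864583-131864622, plus strand: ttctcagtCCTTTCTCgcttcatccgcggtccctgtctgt
Snhg8, chr3:123211225-123211264, minus strand: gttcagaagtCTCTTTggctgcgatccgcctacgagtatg
Snhg3, chr4:131909572-131909611, minus strand: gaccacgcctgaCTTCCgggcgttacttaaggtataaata
Snhg5, chr9:88417706-88417745, minus strand: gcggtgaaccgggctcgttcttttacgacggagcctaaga
Snhg1, chr19:8797967-8798006, plus strand: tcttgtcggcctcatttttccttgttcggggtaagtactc
Such a run stood at 5 of the 8 promoters, against 25.5% of all 32851 RefSeq mouse promoters searched in the same window. It was found for 5 of the 7 hosts, and not at the RefSeq starts of Snhg5 and Snhg1 or at the other start of Gas5. In Snhg5, a C followed by T bases begins inside the window and ends past it, so it was not counted. The run did not have to begin at the start base itself, and that of Snhg3 begins after it, so a match is not the same as a 5′ TOP sequence. A match of letters is a description of the window and does not show how the RNA is used.

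The 4 libraries held 40524694 to 40977464 counted reads, and their TMM factors lay between 0.9943 and 1.006. Of 16264 genes tested by edgeR's quasi-likelihood test, 253 were higher and 262 lower in MUT_CTCF mESCs at an adjusted p under 0.05, and with scaling by library size only these were 260 and 153. Ctcf, whose row does not separate endogenous from vector transcripts, had a log2 fold change of 0.044 (adjusted p = 0.499, edgeR). The 10 embryonic stem cell markers were all expressed, with Sox2 higher and Utf1 and Dppa5a lower. These 10 markers summed to 7309 to 7377 CPM (reads scaled to each library total multiplied by its TMM factor) over the 4 libraries. Fibroblast markers summed to 21.6 and 22.3 CPM in WT_CTCF and 23.5 and 25.1 in MUT_CTCF mESCs, with none of 4 tested called at an adjusted p. Col3a1 had a log2 fold change of -1.52 on few reads, and Thy1 had 0.20. Lum held 0 reads in all 4 libraries and was not tested. Primitive endoderm markers summed to 9.82 and 9.53 against 10.8 and 16.4 CPM. None of 4 tested was called. All 4 had a log2 fold change above 0 (median 0.56), as had 8267 of the 16264 tested genes. At an unadjusted p under 0.05, 2 were called, where 15.3% of all tested genes were. These were Gata6, at 0.95 (adjusted p = 0.0733, edgeR), and Sox17, at 0.75 (adjusted p = 0.259, edgeR). Trophectoderm markers summed to 42.8 and 41.9 against 32.3 and 33.8 CPM, with Cdx2 and Krt8 lower among 5. All 5 had a log2 fold change below 0 (median -0.14), beside 49.2% of all tested genes. Neural markers summed to 400.0 and 400.6 against 360.7 and 368.1 CPM, with Tubb3 lower among 3 tested. Tubb3 holds most of that sum, and Nes and Pax6 had log2 fold changes of 0.11 and 0.45, neither called, so that the median of the 3 was 0.11. The 2-cell-like markers summed to 33.2 in both WT_CTCF libraries against 25.8 and 24.1 CPM, with Zscan4d lower among 4. Zscan4c had a log2 fold change of -0.30 and was not called. All 4 were below 0 (median -0.41) and 3 had an unadjusted p under 0.05, beside the same 49.2% and 15.3%. Each of these marker calls was lost when genes were not filtered (adjusted p from 0.0701 for Tubb3 to 0.346 for Dppa5a, edgeR) and without either MUT_CTCF library. Sox2 and Dppa5a were also lost by the exact test of edgeR (adjusted p = 0.103 and 0.0826), and Krt8 with library size only (adjusted p = 0.0508, edgeR) and by DESeq2 (adjusted p = 0.0777). For Cdx2, DESeq2 gave no adjusted p. The part of these cell states in the values of the hosts was not tested.

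Of the 5 tested hosts, 4 had slightly lower mean levels in MUT_CTCF mESCs and Snhg7 a slightly higher one, and the fitted differences were all under 10%. At an adjusted p under 0.05, 0 of the 5 were called by edgeR's quasi-likelihood test or by its exact test. DESeq2 also called none, but gave no adjusted p for Snhg7. The quasi-likelihood test called 3.17% of all tested genes, 1.56% higher and 1.61% lower. At an unadjusted p under 0.05, Gas5 and Snhg5 were called, both lower, where 15.3% of all tested genes were called in either direction and 7.65% lower. None of the 5 reached the study's criterion of a p under 0.05 with a fold change above 2, which 1.3% of tested genes met. The median log2 fold change of the 5 was -0.085, beside 0.0034 for all tested genes, moving to -0.02 when MUT_CTCF replicate 2 was left out and to -0.15 when MUT_CTCF replicate 1 was. In a bulk library, fewer cells of a type and less RNA per cell cannot be told apart. By exact permutation, 2 libraries against 2 reach no two-sided p under 0.333, and the tests given here borrow their spread from all genes.

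Gas5 (growth arrest-specific 5, ENSMUSG00000053332), known as a decoy for the glucocorticoid receptor, lies at chr1:162964553-162968670 on the plus strand of mm9. It is annotated with 25 transcripts, whose exons merge to 3 blocks of 3760 bases. Its normalized counts (counts scaled to a common library size by TMM) were 4048 and 4002 in WT_CTCF libraries 1 and 2 and 3923 and 3417 in MUT_CTCF libraries 1 and 2. Both MUT_CTCF libraries lay below both WT_CTCF libraries, as for 22.3% of all tested genes, but the first MUT_CTCF library lay close to the WT_CTCF pair. The group values were 4025 ± 32.6 (SD, n = 2) and 3670 ± 357.5 (SD, n = 2). The log2 fold change was -0.13 (standard error 0.0507), which is -8.82% with a 95% interval of -15% to -2.16%. Its adjusted p was 0.158 (edgeR's quasi-likelihood test). Without MUT_CTCF replicate 2 the log2 fold change was -0.039, and without MUT_CTCF replicate 1 it was -0.24.

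Snhg5 (ENSMUSG00000032424), host of the SNORD50 snoRNAs, lies at chr9:88415894-88417721 on the minus strand and has 1 annotated transcript of 5 exons and 993 bases. Its normalized counts were 3054 and 2593 in WT_CTCF and 2714 and 2442 in MUT_CTCF mESCs. The groups overlapped, since the first MUT_CTCF library lay above the second WT_CTCF library. The means were 2823 ± 325.8 (SD, n = 2) and 2578 ± 192.9 (SD, n = 2). The log2 fold change was -0.13 (standard error 0.0608), or -8.69% with a 95% interval of -16.1% to -0.642%, and the adjusted p was 0.288 (edgeR). The value rested on the choice of library: without WT_CTCF replicate 2 it was -0.25 with an adjusted p of 0.0418 (edgeR), and without WT_CTCF replicate 1 it was -0.0087. In each of these fits the lone library was assumed to vary like the other group.

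Snhg1 (ENSMUSG00000090867), host of SNORD25 to SNORD31 and Snord22, lies at chr19:8797986-8800932 on the plus strand. Its 2 transcripts merge to 1 block of 2947 bases that covers the whole gene, so reads from its introns are counted together with those from its exons. Its normalized counts were 2447 and 2526 in WT_CTCF and 2455 and 2234 in MUT_CTCF mESCs. The groups overlapped, with the second MUT_CTCF library the lowest. The log2 fold change was -0.085 (standard error 0.0589), with an interval of -13.1% to 2.32% and an adjusted p of 0.546 (edgeR). Leaving out MUT_CTCF replicate 2 gave -0.02, and leaving out MUT_CTCF replicate 1 gave -0.15.

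Snhg12 (ENSMUSG00000086290), at chr4:131864593-131866939 on the plus strand, hosts H/ACA and C/D snoRNAs together. Its normalized counts were 756.2 and 806.9 in WT_CTCF and 776.2 and 770.7 in MUT_CTCF mESCs. Both MUT_CTCF libraries lay between the WT_CTCF libraries. The fitted log2 difference was -0.015 with a standard error of 0.0949 (adjusted p = 0.968, edgeR) and an interval of -13.2% to 12.9%, and it was 0.032 without WT_CTCF replicate 2.

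Snhg7 (ENSMUSG00000091299), at chr2:26492697-26495764 on the minus strand, hosts the H/ACA snoRNAs Snora43 and Snora17. Its normalized counts were 211.3 and 203.5 in WT_CTCF and 222.1 and 223.1 in MUT_CTCF mESCs. The MUT_CTCF pair lay wholly above the WT_CTCF pair, as for 22.3% of all tested genes. The fitted log2 difference was 0.10 with a standard error of 0.172 (adjusted p = 0.857, edgeR), and at this depth its interval of -15.5% to 36.3% was the widest of the 5.

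**Figure D1:**
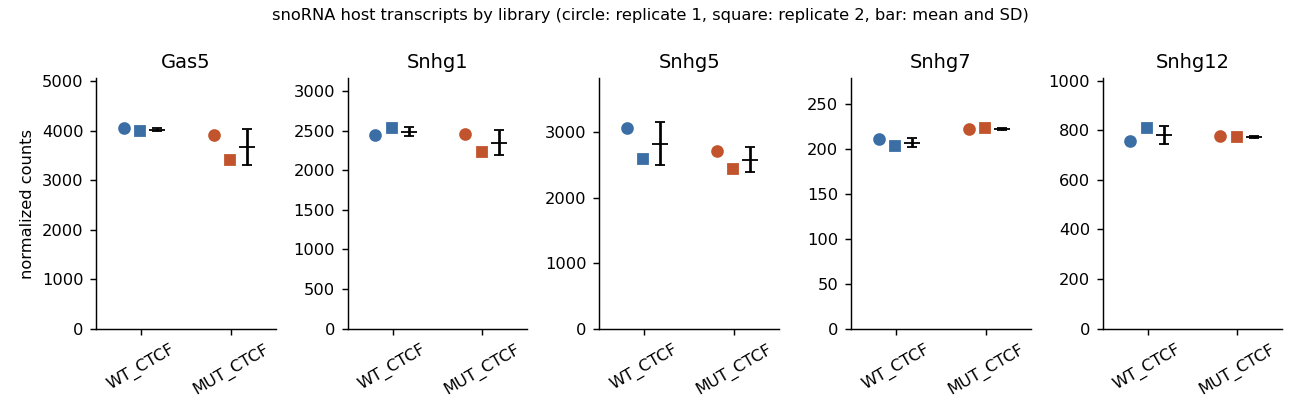
Normalized counts (y axis, linear from 0, own scale for each gene) of the 5 tested hosts in each of the 4 libraries, with WT_CTCF in blue and MUT_CTCF in orange and the mean and SD of 2 libraries beside them. Gas5 shows the MUT_CTCF library 2 at 3417, below the other 3 at 3923 to 4048, and Snhg12 shows the MUT_CTCF libraries between the WT_CTCF libraries.

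**Figure D2:**
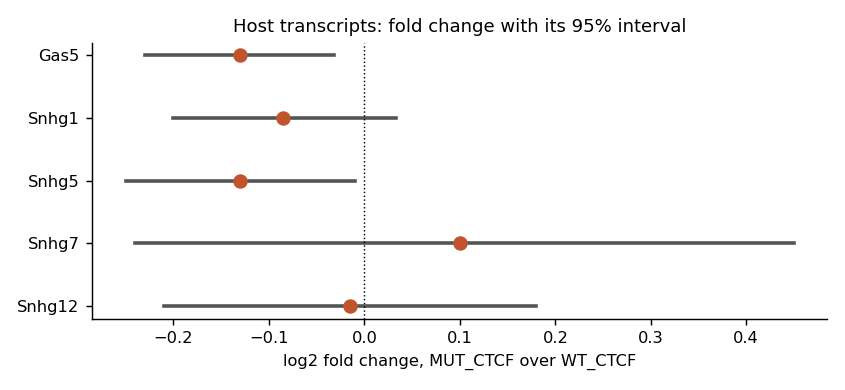
Log2 fold change of MUT_CTCF over WT_CTCF mESCs (x axis) with its 95% interval from edgeR's quasi-likelihood fit (horizontal bars) for the 5 tested hosts. The intervals of Gas5 and Snhg5 end at -0.032 and -0.0093, below 0, before adjustment over all genes, and those of Snhg1, Snhg12 and Snhg7 cover 0.

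The second MUT_CTCF library was the lowest of the 4 for Gas5, Snhg1 and Snhg5. Within the MUT_CTCF pair, library 2 minus library 1 came to -0.20 for Gas5, -0.15 for Snhg5 and -0.14 for Snhg1 on the log2 scale, but to -0.010 for Snhg12 and 0.0065 for Snhg7. Over all tested genes with more than 2000 normalized counts, this replicate difference had an SD of 0.0696. Within the WT_CTCF pair, Snhg5 differed by -0.24, Snhg12 by 0.094, Snhg7 by -0.055, Snhg1 by 0.046 and Gas5 by -0.017, where the SD for genes above that level was 0.0627. Snhg12 and Snhg7 lie below 2000 normalized counts, so neither SD applies to them. Both SDs also take in genes with far more reads than Gas5, Snhg5 and Snhg1, and genes of like depth were not compared. Summed over the hosts, the level was 257.7 and 248.3 CPM in WT_CTCF and 247.3 and 222.7 CPM in the MUT_CTCF libraries. The gap between the MUT_CTCF libraries was thus larger than the gap between the nearest libraries of the 2 lines.

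Per kb of merged exon, Snhg5 had the highest level and Snhg7 the lowest. In WT_CTCF mESCs, the level was 69.7 ± 8.04 CPM per kb (SD, n = 2) for Snhg5, 26.2 ± 0.212 for Gas5, 20.7 ± 0.465 for Snhg1, 11.8 ± 0.54 for Snhg12 and 2.06 ± 0.0552 for Snhg7. In MUT_CTCF mESCs the order was the same, at 63.6 ± 4.76, 23.9 ± 2.33, 19.5 ± 1.3, 11.7 ± 0.0594 and 2.21 ± 0.007 CPM per kb (SD, n = 2). Neighbours in this order differed by more than their SDs in both lines. The distances depend on the length used, and the order may as well. The merged exons of Gas5, Snhg1, Snhg7 and Snhg12 take in introns that some annotated transcripts keep, and those of Snhg5 do not. Levels per kb of spliced RNA were not measured, so the order is not one of spliced RNA. With the longest annotated transcript in place of merged exons, the WT_CTCF levels were 69.7 for Snhg5, 38.6 for Gas5, 22.4 for Snhg1, 20.5 for Snhg12 and 2.15 for Snhg7, which places Snhg1 and Snhg12 close together. By mean CPM without regard to length, Gas5 ranked 2463 of the 37620 rows, Snhg5 3389, Snhg1 3729, Snhg12 7205 and Snhg7 10167.

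The annotation places 27 snoRNA genes inside the hosts on their strand, 9 in Gas5, 8 in Snhg1, 4 in Snhg12 and 2 each in Snhg3, Snhg5 and Snhg7. By their names, 20 are C/D and 7 are H/ACA snoRNAs. Reads were counted for 3 of them, and 24 were listed at 0 in all 4 libraries. The snoRNAs with reads are shown first, then 3 of those at 0, so that both kinds can be compared. Capitals mark TGATGA (the core of the C box) within the first 25 bases and CTGA (the D box) within the last 20 of C/D snoRNAs, and ACA within the last 8 bases of H/ACA snoRNAs, all searched on the strand of the gene in mm9.
SNORD50 in Snhg5, chr9:88416367-88416438: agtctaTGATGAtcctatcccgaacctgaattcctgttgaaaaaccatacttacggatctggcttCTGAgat
SNORD50 in Snhg5, chr9:88416635-88416706: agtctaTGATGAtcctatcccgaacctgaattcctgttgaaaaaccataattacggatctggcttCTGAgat
Snora16a in Snhg12, chr4:131865380-131865515: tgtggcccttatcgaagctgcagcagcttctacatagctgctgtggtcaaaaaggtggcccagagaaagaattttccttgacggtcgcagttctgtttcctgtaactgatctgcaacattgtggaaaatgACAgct
Snord47 in Gas5, chr1:162968213-162968289: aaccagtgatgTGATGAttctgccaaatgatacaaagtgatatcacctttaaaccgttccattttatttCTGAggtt
SNORD25 in Snhg1, chr19:8798486-8798550: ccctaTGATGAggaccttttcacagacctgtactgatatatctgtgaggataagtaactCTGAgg
Snora17 in Snhg7, chr2:26494710-26494841: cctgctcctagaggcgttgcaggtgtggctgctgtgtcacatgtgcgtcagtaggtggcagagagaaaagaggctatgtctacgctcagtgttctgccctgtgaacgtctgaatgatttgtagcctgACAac
The C/D letters were found in 16 of the 20 C/D snoRNAs, against 17.8% of the 1552 annotated snoRNA genes of either kind. ACA was found in 6 of the 7 H/ACA snoRNAs, against 47.7% of the 1552. The letters were found among snoRNAs with reads and among those at 0.

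What separated the snoRNAs with reads from those at 0 was their place in the annotation. All 24 at 0 lie wholly within annotated exons of other genes, and the 3 with reads share no base with any. For Gas5, Snhg1, Snhg7 and Snhg12, the exon bases shared with other genes (669, 615, 271 and 333) equal the summed length of these snoRNAs, because some annotated host transcripts keep the introns. Over the whole annotation, 0 of 94 snoRNA genes that lie wholly within exons of others had a read, and 312 of the 1442 that share no base had one (21.6%). The same held for longer genes: of 142 genes of at least 200 exon bases with every base shared on the same strand, none had a read, and of 98 with every base shared on the opposite strand only, the highest had 2 reads over the 4 libraries. Of the 25171 genes with no shared base, 55.4% had at least 10 reads. No read was thus seen to be assigned to a gene from bases it shares on its own strand, and next to none from bases shared on the opposite strand, and a 0 for these snoRNAs does not give their level. The hosts lose the same reads, which leaves 82.2% of the exon bases of Gas5, 79.1% of Snhg1, 79.5% of Snhg12, 89% of Snhg7 and all of Snhg5 open to counting.

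**Figure D3:**
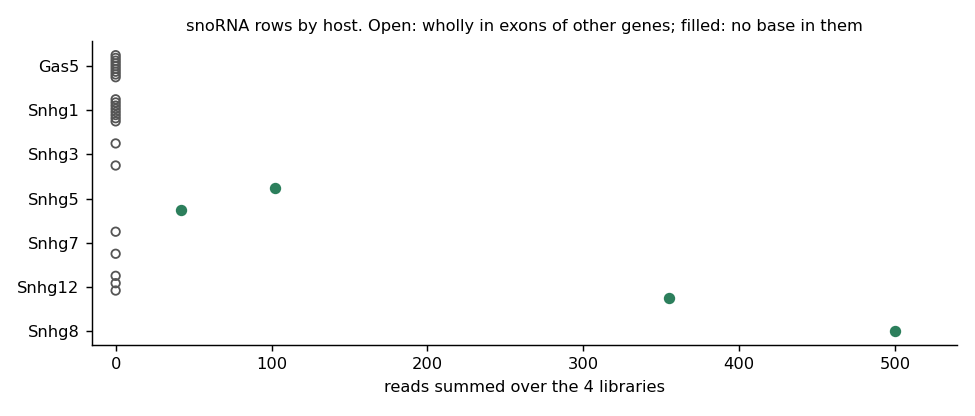
Reads summed over the 4 libraries (x axis, linear) for each annotated snoRNA gene, by host (y axis). Open circles lie wholly within exons of other genes and are all at 0, and filled circles share no base with such exons and hold 42 to 500 reads, the Snhg8 row being the snoRNA at that locus.

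Of the snoRNAs with reads, SNORD50 at chr9:88416367-88416438 had 16 and 10 reads in WT_CTCF and 13 and 3 in MUT_CTCF mESCs. Its neighbour had 35 and 15 against 33 and 19 reads. The copies are 72 bases long and differ at 1 base (98.6% identical), so uniquely mapped reads could be divided uncertainly between them. For both copies, library 1 of each line held more reads than library 2. Snora16a had 85 and 102 reads in WT_CTCF and 77 and 91 in MUT_CTCF mESCs, and the groups overlapped. The log2 fold changes were -0.70 and 0.049 for the SNORD50 copies and -0.16 for Snora16a, none called by edgeR's quasi-likelihood test at an adjusted or an unadjusted p under 0.05. As reads under 50 bases were removed and a snoRNA read can come from the unspliced host, these counts are not levels of the mature snoRNA.

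Snhg3 (ENSMUSG00000085241), the host of the paralogous H/ACA snoRNAs Snora73a and Snora73b, had 0 and 1 reads in WT_CTCF and 0 and 0 in MUT_CTCF mESCs. It lies at chr4:131903929-131909601 on the minus strand, and 851 of its 986 exon bases are shared with other genes. The gene Gm17300 on the opposite strand takes 705 of them, Snora73a on the same strand 159 and Rcc1, the exchange factor of the GTPase Ran, 135, with some bases shared by more than 1 of these. The remaining 135 bases (13.7% of the exon bases) were the only ones open to counting. A count of 0 allows up to 3 counts, or 0.074 CPM, by counting error alone, and this limit holds for those bases only. Gm17300, which keeps exons outside Snhg3, had 156.2 and 162.4 normalized counts in WT_CTCF and 151.7 and 146.7 in MUT_CTCF mESCs (adjusted p = 0.895, edgeR). Rcc1 had 10650 and 10759 normalized counts in WT_CTCF and 11298 and 11137 in MUT_CTCF mESCs (log2 fold change 0.068, adjusted p = 0.316, edgeR).

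Snhg8 has no gene of its own in the annotation of the count table. Its RefSeq promoter matched mm9 on chromosome 3 with the start at 123211254 on the minus strand. The only gene annotated within the length of the RefSeq gene from there (785 bases) is an H/ACA-type snoRNA, AC124005.1 (ENSMUSG00000092730), whose sequence is shown because its row is the only measure at that locus.
AC124005.1, chr3:123210855-123210984: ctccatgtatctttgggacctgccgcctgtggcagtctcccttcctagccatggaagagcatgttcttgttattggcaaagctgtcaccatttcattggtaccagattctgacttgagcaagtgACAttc
This row held 131 and 116 reads in WT_CTCF and 122 and 131 in MUT_CTCF mESCs, with the groups overlapping. No base of it is shared with another gene, and it covers 130 of the 785 bases, so it is no measure of the spliced Snhg8 RNA.

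The nearest protein-coding gene on each side was examined for each host with a row, and none of these 12 neighbours was called at an adjusted p under 0.05 by edgeR's quasi-likelihood test. At an unadjusted p under 0.05, which 15.3% of all tested genes met in either direction, 3 of the 12 were called, all higher: Rcc1 beside Snhg3, Trnau1ap beside Snhg12 and Lcn4 beside Snhg7. Trnau1ap, which binds the selenocysteine tRNA, lies on the opposite strand with its 3′ end 738 bases from that of Snhg12, so that the genes converge, and had 1315 and 1363 normalized counts in WT_CTCF and 1633 and 1467 in MUT_CTCF mESCs. The MUT_CTCF pair lay wholly above the WT_CTCF pair, at a log2 fold change of 0.21 (standard error 0.0732) with an adjusted p of 0.109 (edgeR). Lcn4, a lipocalin, had 3 and 0 reads against 13 and 10, too few for a precise fold change (2.83 on the log2 scale, standard error 1.12). The partner of Gas5, Zbtb37, overlaps its 5′ end on the opposite strand and had a log2 fold change of 0.0043 with a standard error of 0.182. Slc3a2, the heavy chain of amino acid transporters, lies 126 bases from Snhg1 on the opposite strand and had 12337 and 12401 against 12940 and 12763 normalized counts (log2 fold change 0.055, adjusted p = 0.416, edgeR). Snhg1 and Slc3a2 thus had fitted values of opposite sign, neither called.

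The wider set of genes around snoRNA production leaned to lower values in MUT_CTCF mESCs, by small amounts. Calls were made among the protein-coding hosts and for 1 snoRNP factor. With scaling by library size only, the median log2 fold change was -0.065 for other noncoding hosts and -0.041 for protein-coding hosts. It was -0.056 for snoRNP factors, -0.042 for decay factors and 0.016 for all tested genes. Of 14 other noncoding hosts, 13 had a row and 10 were tested. None was called by edgeR's quasi-likelihood test, also at an unadjusted p under 0.05, and 7 of 10 had a log2 fold change below 0 (median -0.077, range -0.27 to 0.042), as had 49.2% of all tested genes. Zfas1 (annotated as 1500012F01Rik), another host with a 5′ TOP sequence, had 1563 and 1622 normalized counts in WT_CTCF and 1490 and 1398 in MUT_CTCF mESCs (log2 fold change -0.14, adjusted p = 0.329, edgeR). Snhg4 had 315.5 and 297.7 against 235.0 and 272.3 (log2 fold change -0.27, adjusted p = 0.408, edgeR). For both, the MUT_CTCF libraries lay below the WT_CTCF libraries, as for 22.3% of all tested genes. Without one library or another, the median of the 10 ran from -0.12 to 0.001.

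Of 40 protein-coding genes that carry snoRNAs in their introns, most of them for ribosomal proteins and translation factors, 9 fell and 0 rose at an adjusted p under 0.05 (22.5% lower, beside 1.61% of all tested genes). The median log2 fold change was -0.053. Below 0 were 33 of 40, beside 49.2% of all tested genes, and 24 had an unadjusted p under 0.05, beside 15.3%. Most of these genes hold many reads, where small changes are more readily called, and genes of like depth were not compared. Rpl30, a protein of the large ribosomal subunit, had 8201 and 7915 normalized counts in WT_CTCF and 7186 and 7040 in MUT_CTCF mESCs (log2 fold change -0.18, standard error 0.0368, adjusted p = 0.00137, edgeR). Rps20, of the small subunit, had 27408 and 27283 against 24775 and 25595 (log2 fold change -0.12, adjusted p = 0.00369, edgeR). Eef1b2, of the translation elongation factor complex, had 46942 and 44897 against 42883 and 42591 (log2 fold change -0.10, adjusted p = 0.00552, edgeR). Wdr43, a nucleolar protein of small subunit assembly, had 5617 and 5506 against 4938 and 4976 (log2 fold change -0.17, adjusted p = 0.014, edgeR). In each of these 4, both MUT_CTCF libraries lay below both WT_CTCF libraries, as for 22.3% of all tested genes. They were picked by their small p in the same libraries, so this adds no separate evidence. The 9 lower calls became 5 with scaling by library size only, 4 by edgeR's exact test, 0 without a filter on low counts, 4 without WT_CTCF replicate 2 and 0 without any one of the other libraries. Ribosomal protein genes have many processed copies in the genome, which makes their uniquely mapped counts less certain.

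Among 20 snoRNP proteins and assembly factors, of which Nop56 and Dkc1 are also hosts, 1 was lower and 0 higher (5% lower, beside 1.61% of all tested genes). The median was -0.068, with 17 of 20 below 0, beside 49.2% of all tested genes, and 7 at an unadjusted p under 0.05, beside 15.3%. The 1 called was Nop2, a methyltransferase of ribosomal RNA, with 14606 and 14601 normalized counts in WT_CTCF and 13286 and 13591 in MUT_CTCF mESCs (log2 fold change -0.12, adjusted p = 0.0142, edgeR). It was not called without a filter (adjusted p = 0.211, edgeR) or without any one of the 4 libraries. Znhit3, an assembly factor of C/D snoRNPs, had 2128 and 2104 against 1773 and 1944 (log2 fold change -0.19, adjusted p = 0.10, edgeR). Among 15 factors of nonsense-mediated decay, 0 were called by edgeR's quasi-likelihood test, 4 had an unadjusted p under 0.05 and 12 were below 0 (median -0.055), to be read beside the same 15.3% and 49.2%. Smg1, the kinase of Upf1, had 2261 and 2273 normalized counts against 2074 and 2030 (log2 fold change -0.14, adjusted p = 0.219, edgeR). Its groups lay apart, with the MUT_CTCF libraries lower, as for 22.3% of all tested genes. Genes of like depth were not compared for the snoRNP and decay lists either.

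**Figure D4:**
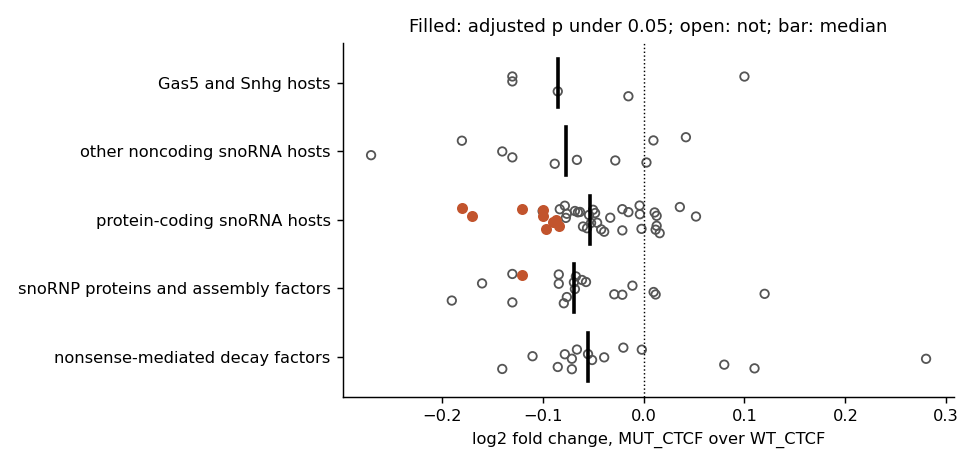
Log2 fold change of MUT_CTCF over WT_CTCF mESCs (x axis) of each tested gene in 5 lists, filled where the adjusted p was under 0.05 by edgeR's quasi-likelihood test, with a bar at each median. The medians lie between -0.085 and -0.053, and the filled points are 9 protein-coding hosts and Nop2.

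The genes whose levels followed the mean of the 5 hosts most closely over the 4 libraries, among 11587 tested genes with a mean of at least 100 normalized counts, were A4galt, Glt1d1 and Trap1a. Their Euclidean distances in centred log2 CPM were 0.0091, 0.0114 and 0.0132, where those of the hosts themselves ran from 0.0707 for Snhg1 to 0.172 for Snhg7. A4galt, a galactosyltransferase of glycolipids, had 1890, 1845, 1870 and 1753 normalized counts in WT_CTCF libraries 1 and 2 and MUT_CTCF libraries 1 and 2, with the second MUT_CTCF library lowest. These genes were picked as the nearest of all, so their lying nearer to the mean than the hosts follows from that choice. The likeness is over 4 libraries only and is a description.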

How the data were processed

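RNA-seq reads of 2 WT_CTCF and 2 MUT_CTCF libraries were trimmed by the authors with Trim Galore 0.4.4 (reads under 50 bases dropped), aligned to mm9 with STAR and counted per gene with HTSeq 0.9.1, and the counts of uniquely mapped reads were deposited without normalization. Whether strand was used is not given in the sources used here and was read from the counts. The deposited table of the authors' own edgeR comparison holds fold changes and p-values and was not used. The methods call the libraries of a line biological replicates.

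Names and exons came from GENCODE M1 (NCBIM37, the same build as mm9), which named 37205 of 37620 identifiers; promoter sequences came from RefSeq (GRCm38.p6). Genes were filtered by filterByExpr (minimum count 10), scaled by TMM and compared on condition by the quasi-likelihood test (glmQLFit, glmQLFTest) of edgeR 4.0.16 under R 4.3.3, with Benjamini-Hochberg adjustment over 16264 genes. The standard error is the log2 fold change over the root of F. Each SD is over 2 libraries. The fits were tested on simulated data. Intervals cover 95%. Alternatives were DESeq2 1.42.0 and its size factors, library size only, edgeR's exact test, no filter, 10 reads in every library, a replicate block, each library left out, and the longest transcript as length.

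The members, the lists (other noncoding hosts, protein-coding hosts, snoRNP factors, decay factors, snoRNAs and 6 sets of cell type markers) and the rules were chosen with earlier results of these data known. All members were named, as were up to 4 genes with the smallest p of each list among those passing an adjusted p under 0.05, or the 2 with the smallest p where fewer than 2 passed. The nearest protein-coding neighbours and the 3 genes nearest to the mean pattern were also named. A gene that this rule names is not reported here.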

Additional observations from a re-analysis of the deposited data

How the results depend on the processing

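No tested host was called under any setting with all 4 libraries, and the sign of each was kept there. Snhg7 had no adjusted p by DESeq2. With single libraries left out, which leaves 1 library in a group, Snhg5 ran from -0.25 to -0.0087 on the log2 scale and was the 1 host called lower (0 to 1 called, adjusted p = 0.0418 by edgeR without WT_CTCF replicate 2). Snhg12 ran from -0.061 to 0.032, turning in sign without WT_CTCF replicate 2. Over the same fits, the lower calls ran from 0 to 4 for protein-coding hosts (against 9) and were 0 for snoRNP factors (against 1), and all tested genes gave 0 to 140 higher and 0 to 102 lower. Without either MUT_CTCF library no gene was called by edgeR, with 1651 and 1585 at an unadjusted p under 0.05. Lower calls among protein-coding hosts were 5 with library size only, 4 with the exact test and 0 without a filter, and Nop2 was lost without a filter (0 called). Over all genes, 153 were lower with library size only, DESeq2 gave 141 higher and 161 lower, no filter gave 26 and 3, and an unadjusted p with a fold change above 2 gave 154 and 58. The cause of these differences was not tested.

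The labels share replicate numbers without saying that they pair libraries, and deviations of same-numbered libraries had a correlation of -0.0192 over tested genes. With the replicate number as a block, the log2 fold changes were -0.14 for Gas5 (adjusted p = 0.0759, edgeR), -0.086 for Snhg1, -0.13 for Snhg5, 0.10 for Snhg7 and -0.014 for Snhg12, with 326 genes higher and 372 lower. Over 11 alternatives, the adjusted p of Gas5 ran from 0.0759 to 0.785, and that of Snhg5 from 0.0418 to 0.984. Low counts widen the interval of Snhg7, and overlapping annotation leaves Snhg3 and 24 of the 27 snoRNAs without a usable count.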
